A study of Mus musculus with 34 samples.

Results

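CTCF binding after LPS was compared between CTCF-WT and CTCF-KO bone marrow-derived dendritic cells (BMDCs) by 2 peak lists, WTLPS with 54020 peaks and KOLPS with 11576 peaks, together 65596 of the 1393623 peaks in the 30 lists of the series. A WTLPS peak sharing at least 1 bp with a KOLPS peak was called kept, a WTLPS peak without one was called lost, and a KOLPS peak without a WTLPS peak was called KOLPS-only. Both groups came from C57BL/6 mice 8 weeks old whose marrow was cultured with GM-CSF for 6 days. Both carried CreER (a Cre recombinase that acts once tamoxifen is given, driven from the Rosa26 locus). Cells of both received 4-hydroxytamoxifen on the first day of culture and, later, 100 ng/ml LPS for 3 h. The genotype was CreER for CTCF-WT and CreER;CTCF fl/fl for CTCF-KO, so that both carried the recombinase and only CTCF-KO carried the loxP-flanked Ctcf alleles. CD11c+ cells were taken for ChIP-seq, and the lists for H3K27ac, H3K4me1, H3K4me3, H3K27me3, the cohesin subunit SMC1 and the NF-kB subunit p65 of the same 2 conditions were laid over the CTCF classes. Each condition and antibody had 1 list, so no value between conditions has a replicate error or a test, and the 95% intervals given with shares (Wilson for a share, Newcombe for a difference) cover counting error only.

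CTCF is a zinc finger protein that binds a long GC-rich DNA motif. Ring-shaped cohesin complexes, of which SMC1 is a core subunit, extrude chromatin loops and are halted at bound CTCF, so that the borders of loops and of topologically associating domains usually carry both proteins. In dendritic cells, LPS is sensed by Toll-like receptor 4 and induces cytokine and chemokine genes through NF-kB and interferon regulatory factors.

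The sequence under the peaks was read first. A matrix built from the summits of the 2000 strongest WTLPS peaks, starting from the 8-mer AGAGGGCA that lay in 11.7% of those summit windows and 0.975% of windows 1 kb away, had 19 positions, and its most frequent bases read TGGCCACTAGAGGGCACTA. A summit was counted as matched where the best score on either strand within 50 bp reached 14.33, a level reached by 1.0% of windows 1 kb from WTLPS summits. Among WTLPS peaks 33.7% (33.3 to 34.1%) were matched. The 41 bases around the match nearest the summit are shown for the strongest lost and kept peaks (highest −log10 q), with the match in capitals and the strand of the match read 5′ to 3′, to show that sites like the matrix lay under peaks of both classes. In the peaks at Lair1, Mir99ahg, Gm47283, Mthfd2l and C1qtnf9 that match lay more than 50 bp from the summit, so these summits were not counted as matched.
Lost, chr7:4026990-4027030, + strand, in Lair1: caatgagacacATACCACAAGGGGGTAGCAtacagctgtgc
Lost, chr15:21519541-21519581, − strand, in Cdh12: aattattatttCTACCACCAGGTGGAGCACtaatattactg
Lost, chr5:45757669-45757709, + strand, in Lcorl: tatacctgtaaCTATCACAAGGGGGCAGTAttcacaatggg
Lost, chr16:77535206-77535246, + strand, in Mir99ahg: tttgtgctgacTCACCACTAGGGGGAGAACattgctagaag
Kept, chrY:90808842-90808882, − strand, in Gm47283: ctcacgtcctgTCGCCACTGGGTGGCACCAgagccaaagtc
Kept, chr8:19703272-19703312, − strand, outside genes: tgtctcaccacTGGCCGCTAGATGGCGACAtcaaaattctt
Kept, chr8:19707169-19707209, + strand, outside genes: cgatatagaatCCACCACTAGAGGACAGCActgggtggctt
Kept, chr5:90951618-90951658, + strand, in Mthfd2l: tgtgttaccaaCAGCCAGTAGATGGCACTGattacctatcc
Kept, chr14:60771357-60771397, − strand, at C1qtnf9: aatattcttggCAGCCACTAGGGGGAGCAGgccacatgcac
Coordinates are mm10 (GRCm38) and sequences are from the RefSeq assembly of that build. The lost peak of rank 3, in an intron of Rasa2 on chromosome 9, had no match within its bounds, its best summit score being 13.6. All 5 lost peaks named here had SMC1 in WTLPS and no SMC1 in KOLPS, and all 5 kept peaks had SMC1 in WTLPS, of which 3 had none in KOLPS.

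Most WTLPS CTCF peaks had no counterpart in KOLPS. Of the 54020, 9452 were kept (17.5%, 17.2 to 17.8%) and 44568 were lost (82.5%, 82.2 to 82.8%). Of the 11576 KOLPS peaks, 9963 overlapped a WTLPS peak and 1613 (13.9%, 13.3 to 14.6%) were KOLPS-only. The kept share was 2.91% where 50% of the WTLPS peak had to be covered, and the KOLPS-only share was 3.98% among peaks with −log10 p of at least 15 and 23.3% where summits had to lie within 200 bp. The list of unstimulated CTCF-KO cells was longer than KOLPS, at 20151 peaks. It held a peak at 95.4% of kept peaks (9018 of 9452) and 12% of lost peaks (5364 of 44568). For lost peaks this share rose with strength, taken as deciles of WTLPS −log10 q. It was 2.43% in deciles 1 to 5, the weakest, and 46.7% (3628 of 7770) in deciles 8 to 10. In unstimulated CTCF-WT cells 98.3% of kept and 87.7% of lost peaks were listed.

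The strongest lost peak, at chr7:4026062-4027952 in Lair1, a gene for an inhibitory collagen receptor of leukocytes, held 217 fragments at its summit and a fold of 48.1 over background. Next in −log10 q came a peak of fold 45.4 in Cdh12, a cadherin gene, and one of fold 43.5 in Rasa2, which encodes a Ras GTPase-activating protein. These were high values for the lost class, whose median fold was 5.96 (quartiles 4.63 and 9.49), against 19.2 (14.8 and 24.3) for kept peaks. Kept peaks were also wider, with a median of 1461 bp against 592 bp. In KOLPS the peaks over kept sites were narrow and low, with a median width of 388 bp and a median fold of 5.90.

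Among kept peaks, the intronic peak at chr5:90949999-90953737 in Mthfd2l, which encodes a mitochondrial folate enzyme, had 314 fragments in WTLPS and 30 in KOLPS. The peak at C1qtnf9, the gene for a C1q- and TNF-related secreted protein, had 301 and 76. Both chromosome 8 peaks lay side by side, with 4930467E23Rik as the nearest protein-coding gene, with 499 and 440 fragments in WTLPS and 83 and 55 in KOLPS. The peak of highest −log10 q, at chrY:90796995-90811641, had 558 fragments in WTLPS and 134 at the overlapping KOLPS peak. That KOLPS peak, at chrY:90803437-90806272, did not cover the WTLPS summit, so the counts come from different positions. The others were lower in KOLPS although they too were called kept.

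That pattern held for the kept class as a whole. The deposited fold and p of each peak fix the number of fragments at the summit and the local background, so that the enrichment, fragments over the list's usual background of 3.53 fragments in WTLPS and 2.82 in KOLPS, could be set side by side. At 9406 kept peaks without a raised local background, the median was 88 fragments in WTLPS and 22.0 in KOLPS. The KOLPS enrichment was a median of 0.340 times the WTLPS enrichment (quartiles 0.264 and 0.458). It was lower in KOLPS at 9034 peaks and higher at 372 (3.95%). A KOLPS peak needed 15 fragments at the usual background, and this floor cuts off the lower part of the ratios, so the decile of WTLPS peaks with the highest −log10 q, of which 80.5% were kept, was also read alone. There the median ratio was 0.276 over the kept peaks (0.220 and 0.354), and 0.248 when the 1048 lost ones were set at the highest level they could have had. Of the 5370 peaks in that decile, 5360 lay below a ratio of 1. Since each value is relative to its own library's background and libraries hold many cells, fewer cells with CTCF and less CTCF in each cell cannot be told apart.

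**Figure D1:**
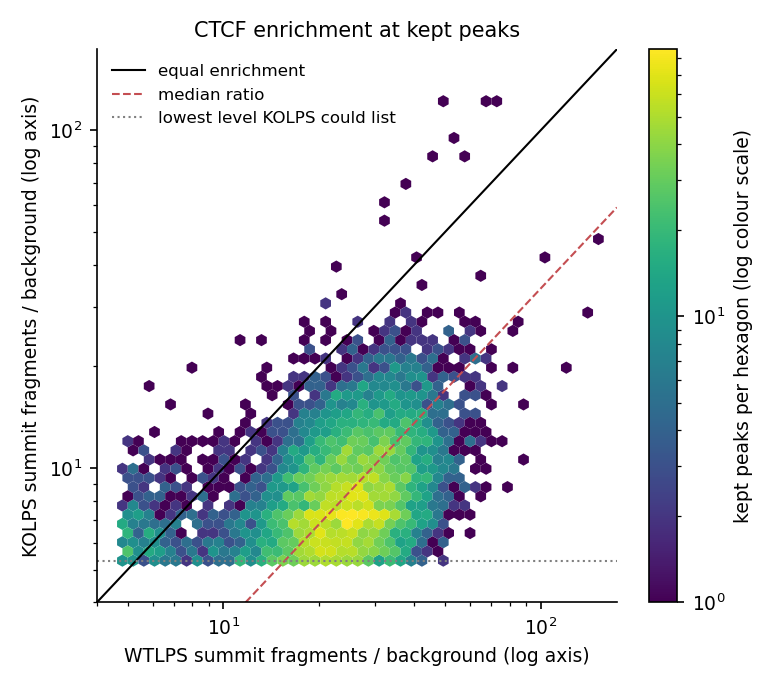
Each hexagon counts kept CTCF peaks by the summit fragments over background in WTLPS (x axis, log scale) and KOLPS (y axis, log scale), colour on a log scale, 9406 peaks. Nearly all lie below the black line of equal enrichment, along the dashed line of the median ratio 0.340, and the dotted line marks the lowest level that the KOLPS list could hold.

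The kept share increased with peak strength in WTLPS from decile 6 on. In the lowest 5 deciles of −log10 q, 463 peaks were kept and 26547 lost, and the kept share was 1.91% in the weakest decile. It reached 25.5% in decile 8, 50.2% in decile 9 and 80.5% (79.4 to 81.6%) in decile 10, where the median was 110 fragments. A KOLPS peak needed 15 fragments at the usual background, so a given fall would leave weak peaks unlisted before strong ones. Median width also grew, from 332 bp in decile 1 to 1720 bp in decile 10. The parts of this floor and of peak width in the increase were not tested. The WTLPS library was covered more deeply, with a KOLPS to WTLPS background ratio of 0.799. Thinned to the KOLPS coverage by calculation, WTLPS would be expected to list 47610 peaks, 19.6% of them kept, and 85.9% of the lost peaks would still be expected to be listed. At 86.7% of 44554 lost peaks without a raised local background the WTLPS enrichment was above the highest level that an unlisted KOLPS site could have had, and at 32.4% the KOLPS to WTLPS ratio must have been below 0.5.

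Promoter and H3K27ac peaks were kept more often than other peaks of like strength. Promoters, taken as the 2.5 kb up- and downstream of the first base of each gene's longest transcript, held 26.6% of kept peaks (25.8 to 27.5%) and 19.1% of lost peaks (18.7 to 19.4%), a difference of 7.57 percentage points (6.62 to 8.55). Read the other way, 22.9% of promoter peaks and 16.1% of the others were kept, a difference of 6.74 points (5.89 to 7.60). With 50% of the peak covered these differences were 19.2 and 3.34 points, and with −log10 p of at least 15 they were 4.61 and 3.02. Such windows made up 8.99% of the genome. Introns held 24.0% of kept and 39.3% of lost peaks, exons 14.1% and 10.3%, and sequence outside genes 35.2% and 31.4%. An overlap of 1 bp sufficed, and kept peaks were the wider ones. Read from the narrower KOLPS peaks over kept sites, promoters held 23.3%, introns 31.4%, exons 7.33% and sequence outside genes 38.0%. The part of peak width in these contrasts was not tested. In each of the 10 deciles of strength promoter peaks were kept more often, with intervals above 0 in 10 of 10. In decile 8, for instance, 36.3% of promoter peaks (33.6 to 39.0%) and 22.3% of others (21.1 to 23.6%) were kept.

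H3K27ac, the acetylation carried by active promoters and enhancers, lay over 17.5% of kept peaks (16.8 to 18.3%) and 10.5% of lost peaks (10.2 to 10.8%) in WTLPS, a difference of 6.98 points (6.17 to 7.81), or 18.6 points with 50% of the peak covered. Peaks with H3K27ac were kept more often in 10 of 10 deciles. In decile 9 the kept share was 63.3% (59.7 to 66.7%) with H3K27ac and 48.2% (46.7 to 49.6%) without. The enrichment remaining at decile 10 was slightly higher where H3K27ac was present, at a median ratio of 0.302 over 593 kept peaks against 0.272 over 3729. H3K4me1 covered 41.8% of kept and 30.9% of lost peaks, and H3K4me3, the mark of promoters, 20.1% and 8.76%. H3K27me3, laid down by Polycomb, covered 8.14% and 6.39%, and p65 0.815% and 0.599%. These shares too depend on peak width. Read from the narrower KOLPS peaks over kept sites, the WTLPS lists covered 11.7% for H3K27ac, 32.5% for H3K4me1 and 17.1% for H3K4me3. For H3K27me3 it was 2.81%, below the share of lost peaks, and for p65 0.552%. Of lost peaks, 53.0% lay away from promoters with none of H3K27ac, H3K4me1 or H3K27me3, against 40.2% of kept peaks.

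**Figure D2:**
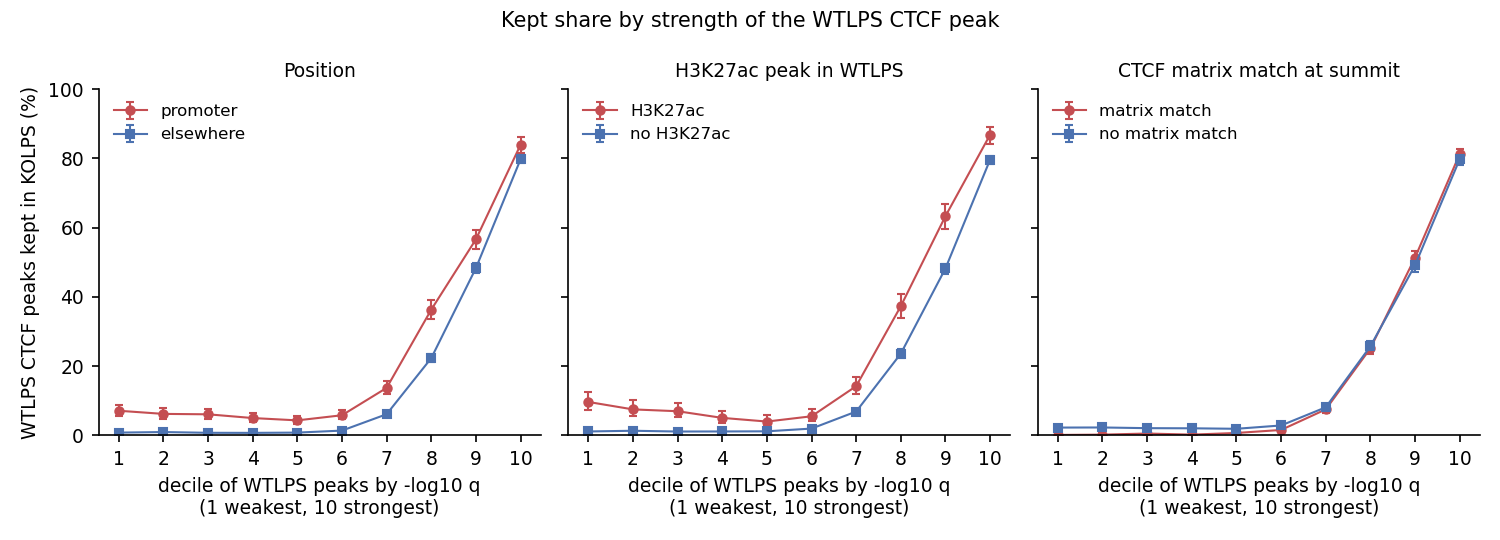
The share of WTLPS CTCF peaks kept in KOLPS (y axis, percent) is plotted by decile of WTLPS −log10 q (x axis), split by promoter position, by a WTLPS H3K27ac peak and by a matrix match at the summit, bars being 95% Wilson intervals. All curves climb after decile 6, promoter and H3K27ac peaks lie above the others throughout, and matched and unmatched peaks run together from decile 8 on.

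**Figure D3:**
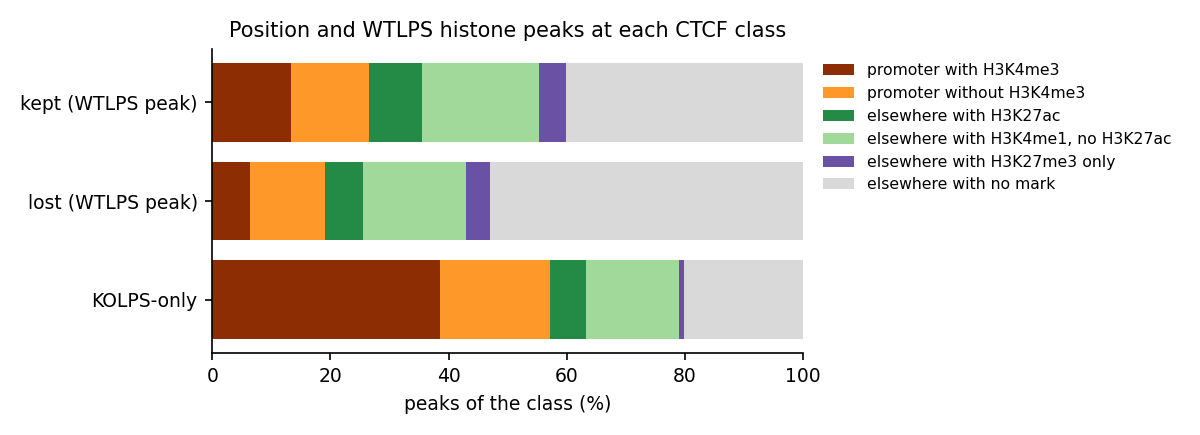
Bars divide the 9452 kept, 44568 lost and 1613 KOLPS-only peaks (percent of the class, x axis) by promoter position and by WTLPS histone peaks; "no mark" means no H3K27ac, H3K4me1 or H3K27me3. Promoters with H3K4me3 made up 13.4% of kept, 6.48% of lost and 38.6% of KOLPS-only peaks.

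The CTCF motif was commoner under kept peaks, at 47.7% of summits (46.7 to 48.7%) against 30.7% (30.3 to 31.2%) of lost ones, a difference of 16.9 points (15.8 to 18). The 2000 strongest peaks, from which the matrix was built, were among those scored, and no difference without them was computed. The difference was 7.85 points with 50% of the peak covered, 10.5 with −log10 p of at least 15, 10.6 with a stricter matrix threshold and 26.5 with a window of 100 bp either side. With matches counted within 50 bp, the difference did not hold at a given strength: matched peaks were kept more often with an interval above 0 in 0 of 10 deciles and less often in 6 of 10. The split by decile was not repeated with the window of 100 bp, so matches farther from the summit counted as unmatched in it. In decile 10 the kept share was 81.2% (79.8 to 82.6%) with and 79.7% (78.1 to 81.3%) without a match, and in decile 1 it was 1 of 852 with and 102 of 4550 without. The share of matched peaks itself climbed from 15.8% in decile 1 to 53.0% in decile 10. Summits in repeats showed the opposite. At least 50% of the window was repeat-masked at 40.8% of lost peaks (40.3 to 41.3%) and 12.7% of kept peaks (12 to 13.3%), and in every decile a lower share of repeat peaks was kept. In decile 9 the kept share was 32.8% in repeats and 53.5% outside, a difference of −20.7 points (−24.1 to −17.2).

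The 463 weak kept peaks (deciles 1 to 5) were unlike the strong ones. They lay at promoters in 62.4% of cases (57.9 to 66.7%), carried H3K4me3 in 55.1% and a matrix match in 5.18% (3.51 to 7.60%), and had a median G+C of 30.7% at the summit. For the 8436 kept peaks of deciles 8 to 10 the same values were 23.6%, 16.6%, 50.9% and 46.5%. At the weakest decile the KOLPS enrichment was a median of 1.25 times the WTLPS enrichment over 103 kept peaks, where only sites at or above the KOLPS floor could count as kept.

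SMC1 was listed at far fewer CTCF sites in KOLPS. SMC1 lay over 92.9% of kept peaks (92.4 to 93.4%) and 47.4% of lost peaks (47.0 to 47.9%) in WTLPS, and over 21% and 2.61% in KOLPS. The WTLPS shares were closer at like CTCF strength. In deciles 1 to 5 they were 25.3% of kept and 26.4% of lost peaks, and in deciles 8 to 10 97.5% and 91.0%. Of the 8783 kept peaks with SMC1 in WTLPS, 22.2% (21.4 to 23.1%) had SMC1 in KOLPS, and of the 21144 lost peaks with SMC1, 5.08% (4.79 to 5.38%), a difference of 17.1 points (16.2 to 18.1). This difference was 41 points with 50% of the peak covered, 31.9 with −log10 p of at least 15 and 9.67 with SMC1 lists at a common threshold. SMC1 was listed again more often where H3K27ac was present: at kept peaks in 45.7% with and 17.5% without WTLPS H3K27ac, at lost peaks in 21.2% and 2.03%. The KOLPS SMC1 list was also shorter, with 17241 peaks against 57354, so all of these shares were set beside SMC1 peaks that had no CTCF. Of the 26456 WTLPS SMC1 peaks without a CTCF peak, 37.9% (37.3 to 38.5%) were listed in KOLPS, although their median fold of 4.29 was below that of SMC1 peaks at kept CTCF (10.3) and at lost CTCF (5.47). Within the strongest quintile of SMC1 peaks, 97.9% (97.1 to 98.5%) of 1624 without CTCF were listed in KOLPS, against 1696 of 5661 (28.8 to 31.2%) at kept CTCF and 12.2% (11.3 to 13.3%) of 4186 at lost CTCF only. SMC1 peaks without CTCF had the highest share in all 5 quintiles. The intervals of kept and lost CTCF did not overlap in quintiles 2 and 5 and overlapped in the other three.

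H3K27ac showed no such split. Of 4693 lost CTCF peaks with H3K27ac in WTLPS, 2426 had H3K27ac in KOLPS (51.7%, 50.3 to 53.1%), and of 1655 kept peaks 916 (55.3%, 52.9 to 57.7%). Counted over H3K27ac peaks, 56.8% (55.4 to 58.2%) of those at lost CTCF only, 55.6% (53.4 to 57.9%) of those at kept CTCF and 39.8% (39.4 to 40.1%) of those without CTCF were listed in KOLPS, and 41.2% of all 77050. The groups differed in strength, and within quintiles of H3K27ac −log10 q the gap was small. In the strongest quintile the listed share was 92.4% (91.2 to 93.5%) at lost CTCF, 87.8% (85.3 to 89.9%) at kept CTCF and 85% (84.4 to 85.7%) without CTCF. In the third quintile it was 32.3%, 33.0% and 31.5%, with overlapping intervals. Away from promoters, where enhancers lie, 45.1% of H3K27ac peaks at lost CTCF, 44.6% at kept CTCF and 33.7% without CTCF were listed in KOLPS. H3K27ac was seen in KOLPS and not in WTLPS at 2.10% of the lost peaks that could gain it and 4.55% of the kept ones. The H3K27ac lists were of like length (77050 and 78202 peaks), but covered 59.6 Mb in WTLPS and 32.4 Mb in KOLPS, and the part of this gap in the shares was not tested.

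**Figure D4:**
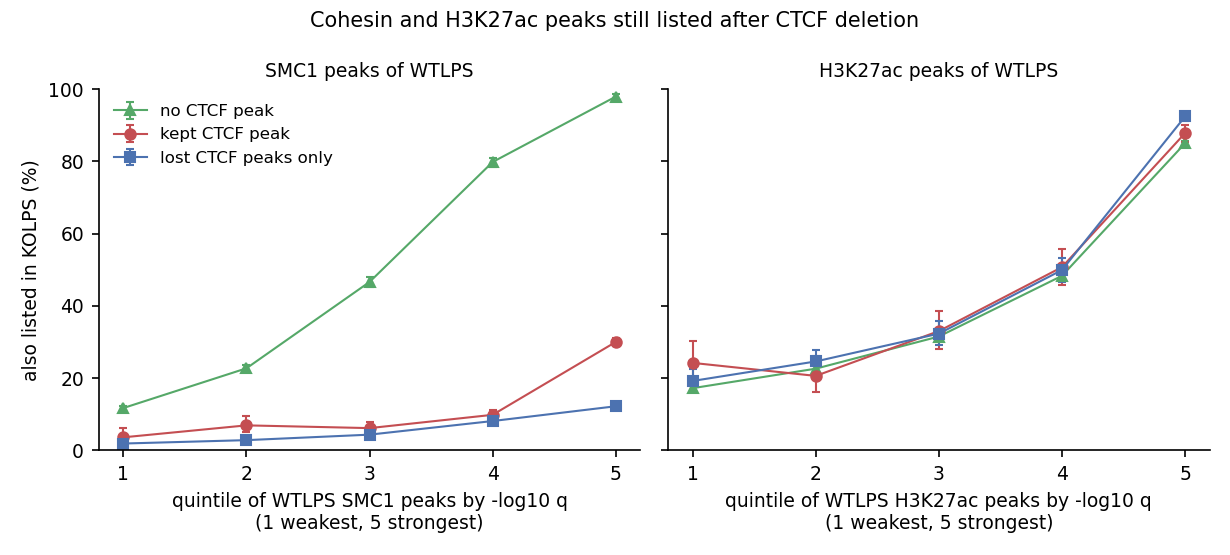
The share of WTLPS SMC1 peaks (left) and H3K27ac peaks (right) also listed in KOLPS (y axis, percent) is plotted by quintile of their own −log10 q (x axis) for peaks with no CTCF peak, with a kept CTCF peak or with lost CTCF peaks only, bars being 95% Wilson intervals. The SMC1 curves part widely, at 97.9% without CTCF and 12.2% with lost CTCF in the strongest quintile, whereas the H3K27ac curves run close together.

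The other marks at lost CTCF peaks were H3K4me3, found again in KOLPS at 82.0% of the 3903 that carried it, H3K4me1 at 62.2% of 13759 and H3K27me3 at 38.3% of 2850. At kept peaks these shares were 80.3%, 66.5% and 46.9%. H3K27me3 had 65880 peaks in WTLPS and 26960 in KOLPS, and the part of this gap in the H3K27me3 shares was not tested. p65 was found again at 65 of 267 lost peaks and 17 of 77 kept peaks, with overlapping intervals (19.6 to 29.8% and 14.3 to 32.5%).

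KOLPS-only peaks had few matrix matches and lay mostly at promoters, traits they shared with the weak kept peaks of deciles 1 to 5 described above. Of the KOLPS-only peaks, 3 of 1613 (0.186%, 0.0633 to 0.545%) held a matrix match, against 41.5% (40.6 to 42.5%) of shared KOLPS peaks, and 57.0% (54.6 to 59.4%) lay at promoters, against 23.3%. In median they had 17 fragments and a fold of 4.45, close to the 15 fragments and fold of 4.19 needed. One locus stood out: 205 of the 1613 (12.7%) lay in the immunoglobulin heavy chain (Igh) locus on chromosome 12 (113254830 to 116010093), as did 4 of the 5 KOLPS-only peaks of highest −log10 q. The strongest of these, at chr12:115203628-115204458, had 65 fragments. Every antibody listed more peaks there in KOLPS than in WTLPS, with H3K27ac at 110 against 9, H3K27me3 at 117 against 33, SMC1 at 276 against 80 and p65 at 64 against 1. Unstimulated cells showed it as well, with 250 CTCF peaks in CTCF-KO and 162 in CTCF-WT. Lists of active and repressive marks were thus both longer over this locus in KOLPS, and the part of a difference in cell make-up, sequence or mapping was not tested.

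Outside Igh and without a raised background, 1399 KOLPS-only peaks remained. They were AT-rich, with a median G+C of 31.7% (26.7 and 35.6%) within 50 bp of the summit against 46.5% (38.6 and 52.5%) at shared peaks, and 43.6% at shared peaks of the same low fold. H3K4me1 covered 76.8% of them in WTLPS and 71.6% in KOLPS, and H3K4me3 49.2% and 52.0%, so these 2 marks were there in either genotype. H3K27ac covered 35.2% in WTLPS and 14.2% in KOLPS, and the part of the smaller area of the KOLPS H3K27ac list was not tested. SMC1 covered 8.79% in WTLPS and 6.22% in KOLPS. The 811 at promoters carried H3K4me3 in KOLPS in 79.8% of cases (76.9 to 82.4%), against 45.5% (43.4 to 47.5%) of shared promoter peaks, and their summits lay a median of 1465 bp from the nearest gene start, against 1076 bp. Of the 811, 79.7% also had a peak in unstimulated CTCF-KO cells and 10.9% in unstimulated CTCF-WT cells. Summit sequences of 3 such peaks, chosen after their values were seen from the 8 genes of highest fold, are given to show the base composition, 5′ to 3′ on the + strand with no match to mark in capitals.
KOLPS-only, chr4:75276949-75276989, Dmac1: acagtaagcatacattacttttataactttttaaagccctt
KOLPS-only, chr3:158034563-158034603, Lrrc40 and Srsf11: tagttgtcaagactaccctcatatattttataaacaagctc
KOLPS-only, chr13:104227168-104227208, Cenpk and Ppwd1: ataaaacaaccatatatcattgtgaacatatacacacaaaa
The KOLPS-only peak of highest −log10 q, at chrY:22211100-22211284 with 198 fragments, and those of the next 3 ranks outside Igh lay instead on short tandem repeats, as this pair shows.
KOLPS-only, chrY:22211157-22211197: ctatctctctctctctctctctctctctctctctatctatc
KOLPS-only, chr3:41230193-41230233: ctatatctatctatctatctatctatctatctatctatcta
The chromosome 3 peak was chosen after its values were seen, as were the division by the Igh locus and by G+C.

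**Figure D5:**
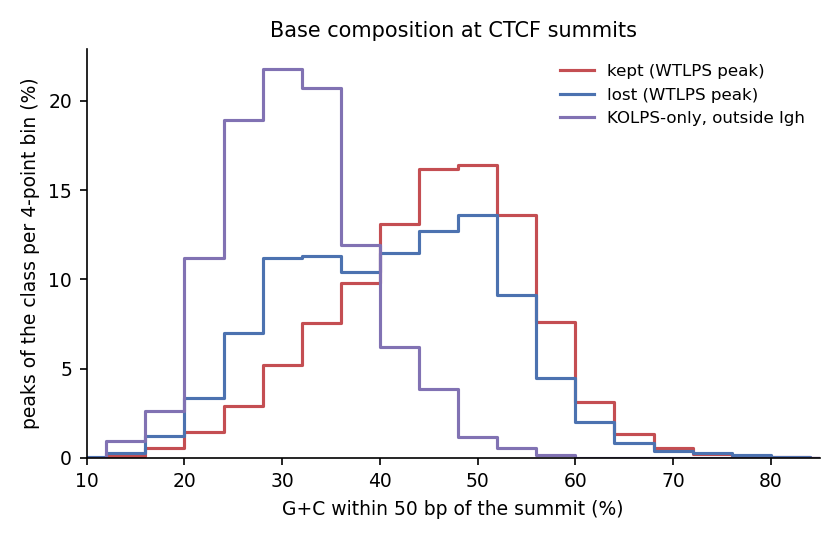
The curves give the share of each class (y axis, percent per bin of 4 points) by G+C content within 50 bp of the summit (x axis, percent). KOLPS-only peaks outside Igh centre on 31.7%, kept peaks on 46.5%, and lost peaks spread over both with a median of 41.6%.

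Peaks with a local background at least 5 times the usual one were few, with 46 kept, 14 lost and 9 KOLPS-only, and 32 of the 46 lay on repeats. In decile 10, 10 kept peaks were higher in KOLPS than in WTLPS. Of these, 7 lay on chromosome Y and 2 more on repeats of chromosomes 11 and 16, and each of these 9 carried H3K27ac and H3K27me3 as well as SMC1 in KOLPS. The remaining one, at chr2:75604041-75606622 near Hnrnpa3, had 144 fragments in WTLPS and 121 in KOLPS (ratio 1.05).

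The kept share varied little among chromosomes 1 to 19, from 16.3 to 19.3%, but was 7.26% (5.87 to 8.94%) on chromosome X. On chromosome Y 17 of 28 peaks were kept (60.7%, 42.4 to 76.4%). The X peaks had the same median strength as those of chromosomes 1 to 19 (32.0 fragments). Their upper quartile was lower, at 47.0 fragments against 58.0 to 64.0 on each of chromosomes 1 to 19. Without a raised local background, deciles 9 and 10 held 47 and 12 of 1102 X peaks, against 5349 and 5348 of 52890. The part of this shortage of strong peaks in the X share was not tested. The order of the kept shares was not the same at every strength. At 17 to 29 fragments 0 of 481 X peaks (at most 0.792%) and 1.70% of the others (1.55 to 1.88%) were kept. At 30 to 49 fragments the X share was the higher one, at 6.87% (4.76 to 9.81%) against 3.56% (3.23 to 3.91%). At 50 to 69 fragments the intervals overlapped, at 33 of 174 (13.8 to 25.4%) and 23.3% (22.3 to 24.3%), and at 70 to 99 fragments X was lower, at 34.0% of 47 peaks (22.2 to 48.3%) against 54.8% of 6466 (53.5 to 56.0%). In decile 9 the median enrichment ratio with lost peaks at their limit was 0.265 on X and 0.268 on chromosomes 1 to 19. The sex of the mice is not in the labels.

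At the level of genes, 5969 of 21938 protein-coding promoters had a WTLPS CTCF peak. Of these, 4245 (71.1%) had no KOLPS CTCF peak and 1724 had one, and 499 (2.27% of all) had a CTCF peak in KOLPS only. Active marks at these promoters were mostly listed in both conditions, a mark counting where any of its peaks lay in the promoter window. Counted by peak, 61.0% of the 19639 WTLPS H3K27ac peaks at promoters of all genes were listed in KOLPS. H3K27ac was retained at 2179 of 2412 lost promoters (90.3%, 89.1 to 91.5%), 1102 of 1224 kept promoters (90.0%, 88.2 to 91.6%) and 4422 of 4969 promoters without CTCF (89.0%, 88.1 to 89.8%), and H3K4me3 at 97%, 98.3% and 96.4%. SMC1, by contrast, went from 60.2% to 19.9% of lost promoters and from 79.0% to 29.7% of kept ones, but from 12.5% to 10.3% of promoters without CTCF.

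The labelled cell type was checked by its marker genes. All 8 dendritic cell genes examined, among them Itgax (CD11c), Zbtb46 and Ciita, had a promoter H3K4me3 peak in both conditions, as had 5 of 5 macrophage genes such as Csf1r. For other lineages the count was the same in both conditions, at 2 of 5 T cell, 2 of 5 B cell, 2 of 4 erythroid and 2 of 3 fibroblast genes, except for neutrophil genes with 2 of 5 in WTLPS and 1 of 5 in KOLPS. The defining genes Cd3e, Ly6g and Hba-a1 had none in either condition. The Ctcf gene, at chr8:105636568-105682922, contained 5 CTCF peaks in WTLPS and 0 in KOLPS and kept its promoter H3K4me3, and peak lists do not measure its deletion.

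Among LPS-induced cytokine genes, 7 of 21 had a promoter CTCF peak in WTLPS, of which 4 were lost and 3 kept, beside 71.1% lost over all promoters with a WTLPS peak. The counts for the lists that follow are to be read against the same share. Il6, a central inflammatory cytokine, had peaks of fold 15.4 and 5.29 in WTLPS, at chr5:30014411-30015403 and chr5:30013066-30013472, and none in KOLPS, whereas H3K27ac, H3K4me1, H3K4me3, SMC1 and p65 were listed at its promoter in both. Such a listing means any peak in the promoter window and gives no level. The p65 list held 5465 peaks in WTLPS and 1752 in KOLPS. The paper describes very little p65 (RelA) binding at the Il6 locus in KOLPS cells. It also reports that the H3K27ac-defined super-enhancer upstream of Il6 failed to become active in them, and that Il6 expression was reduced. Ifnb1, which encodes interferon beta (fold 11.9), Ltb, which encodes lymphotoxin beta (11.7), and Il33 (8.16) were the other losses. Il12b, which encodes the p40 subunit of IL-12 and IL-23, kept a peak, with 62 fragments in WTLPS and 21 in KOLPS. Lif and Csf3, the genes for leukemia inhibitory factor and G-CSF, were kept at folds of 32.7 and 18.1 and of 16.9 and 6.72.

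Chemokine and chemokine receptor genes had 10 promoter peaks among 24 genes, and all 10 were lost (71.1% over all promoters). They included Cxcl16, the gene for the ligand of CXCR6 (fold 16.3), Ccl7 (14.3) and Cxcl3 (14.3), which attract monocytes and neutrophils, and Cxcr4 (13.7), the receptor of CXCL12. Of the 10, 9 carried H3K27ac in WTLPS and all 9 did in KOLPS, beside 90.3% over all lost promoters.

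Toll-like receptor and NF-kB signalling genes had 16 peaks among 37, with 11 lost and 5 kept. Tlr6 (fold 13.5), Tlr3 (11.9) and Traf6 (11.5), a ubiquitin ligase downstream of the receptors, were lost, and H3K27ac was listed at Tlr3 in WTLPS alone. Nfkbia, which encodes the NF-kB inhibitor IκBα, kept a peak at its outer promoter with 108 and 19 fragments, and Irak3, Irak2 and Tlr1 were kept at KOLPS folds of 8.11, 5.50 and 11. Chuk and Map3k7, both kinase genes of this pathway, had a peak in KOLPS only, of 17 and 16 fragments. Interferon response genes had 15 peaks among 31, with 10 lost, such as Gbp2 (16.8) and Ifitm3 (13.7), and 5 kept, such as Ifit2, with 110 and 30 fragments.

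Antigen presentation genes lost 5 of 6, including Tapbp and Tap2 of the peptide loading machinery and the MHC class II genes H2-Ab1 and H2-Aa, and kept H2-DMa with 135 and 46 fragments. Costimulation and checkpoint ligand genes had 1 peak among 15, at Icosl, which was lost. Myeloid and dendritic cell transcription factor genes lost 10 of 14, among them Klf4, Batf, Egr2 and Batf3, with Cebpe, Nfil3 and Maf among those kept, while Ikzf1 had a KOLPS-only peak. The GM-CSF receptor and STAT5 axis lost 8 of 10 (71.1% over all promoters), such as Socs1, Jak2, Bcl2l1 and Cish, the last with a WTLPS peak that overlapped a KOLPS peak outside the promoter window, and kept Myc, with 69 and 15 fragments, and Socs3. Of the genes of cohesin and loop machinery 10 of 15 were lost, for example Zfp143 (fold 21) and Stag1, and Smc3 was kept with 55 and 15 fragments.

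Imprinted genes, whose median WTLPS fold was low at 6.40, lost 7 of 7 (71.1% over all promoters), among them Zrsr1 (fold 15.9) and Cdkn1c (11.1), and 7 of the 32 genes listed are not protein-coding or were not matched. Hox genes lost 7 of 10 and kept Hoxd8, Hoxa7 and Hoxb5, with 45 fragments in WTLPS and 32 in KOLPS at Hoxa7. Ribosomal protein genes lost 27 of 41 and kept 14, with Rps29 at 226 and 47 fragments, and H3K27ac was retained at all 27 lost promoters that carried it, beside 90.3% over all lost promoters.

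The protein-coding promoters of highest fold called lost were, in order, C1qtnf9, A430078G23Rik, Olfr94, Hapln1, Pcdh17, Cep44, Ppp1r42 and Vps13a, at folds of 66.6 down to 33.3. At all but Ppp1r42 the wide WTLPS peak did overlap a KOLPS peak, which lay outside the 2.5 kb window, as was also true of Ifih1, Oas2, Cish and Rpl13 among the lost genes named for each list and of 184 of the 4245 lost promoters (4.33%). Chosen after the values were seen, the strongest losses without such a peak were Ppp1r42 (fold 34.4), Slc9a8 (28.7), a sodium and proton exchanger gene, Cldn20 (26.9) and Hspa1b (26.7), which encodes an inducible HSP70. H3K27ac was listed at Slc9a8 and Hspa1b in both conditions.

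The kept promoters of highest fold were Cfap77, Kif26b, Rps29, Gm5134, Slc26a11, Cstl1, Tmem220 and Gins4, with WTLPS folds of 51.4 to 43.7 and KOLPS folds of 16.2 to 4.97. Slc26a11 showed the lowest KOLPS value of these, with 209 fragments in WTLPS and 18 in KOLPS, and Kif26b the highest, with 231 and 61. The KOLPS-only promoters of highest fold were 9930021J03Rik, Gm36079, Dmac1, Lrrc40, Srsf11, Cenpk, Mllt10 and Ppwd1, at 28 to 25 fragments, with Lrrc40 and Srsf11 sharing 1 peak and Cenpk and Ppwd1 another.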

How the data were processed

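ChIP-seq peak lists of WTLPS and KOLPS cells were used, 1 list per condition and antibody, although the study describes biological replicates, so the spread between replicates is not known here. Per the labels, the authors' tools included BWA 0.7.12, Picard 1.77, MACS2 2.1.2 and deepTools 3.1.3, on mm10. The deposited lists give, for each peak, a fold over background (a ratio) and −log10 p and −log10 q values. Both CTCF lists reached down to −log10 p of 7.002. Since MACS2 adds 1 to the fragments and to the background in its fold, and its p is a Poisson tail, both were recovered from the fold and p. This held for 100.0% of 30621 WTLPS and 9998 KOLPS peaks with −log10 p below 25, within a tolerance of 0.002. Read depth itself was not used here, and the recovered background, 3.53 and 2.82 fragments, stands for it. Peaks were joined by at least 1 bp, and genes, exons and starts were those of GENCODE vM21. Sequence was that of RefSeq GRCm38. The matrix was built iteratively, with an iteration threshold chosen after seeing the data. Named items were the 5 peaks per class of highest −log10 q, the 8 promoters per class of highest fold, and up to 4 lost, 4 kept and 3 KOLPS-only genes of each list, without chromosome 18 and without raised background. Some items that this rule names are not reported here. The members and gene lists were chosen with earlier results of these data known. Scripts ran in Python 3.11.15 with numpy 2.4.6, pandas 2.3.3 and scipy 1.17.1 and were tested on simulated data. Overlap rules, thresholds, promoter width, mark lists, coverage and matrix settings were varied.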

Additional observations from a re-analysis of the deposited data

How the results depend on the processing

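Of 69 alternative values of 9 results, 31 stayed within the interval of the reported value, 38 lay outside it with the same direction, and 0 reversed. Values are given in the order kept share of WTLPS peaks, KOLPS-only share, promoter share (kept minus lost), kept share (promoter minus others), H3K27ac share (kept minus lost), H3K27ac retained at lost peaks, SMC1 retained (kept minus lost), matrix match (kept minus lost) and lost share of promoters, reported as 17.5, 13.9, 7.57, 6.74, 6.98, 51.7, 17.1, 16.9 and 71.1. With 50% of a peak to be covered, the values of the first group (kept share to H3K27ac share) were 2.91, 15.0, 19.2, 3.34 and 18.6, SMC1 41 and the match 7.85. WTLPS peaks are wide and KOLPS peaks narrow, which this rule penalises by construction. With summits within 200 bp the values of the first group (kept share to H3K27ac share) were 16.4, 23.3, 6.03, 5.10 and 6.14, and the match 18.2. With −log10 p of at least 15 the 9 values were 12.8, 3.98, 4.61, 3.02, 6.09, 55.6, 31.9, 10.5 and 85.7. Thinning WTLPS gave a kept share of 19.6 and a KOLPS-only share of 14.9. Promoters of 1 kb gave 9.88 for the kept share and 74.8 for the lost share, and starts of all transcripts 4.61 for the kept share. Marks within 1 kb gave 5.67, 64.1 and 14.7 for the H3K27ac share, H3K27ac retained and SMC1 retained, and mark lists at a common threshold 5.89, 49.9 and 9.67. A stricter matrix threshold gave a match difference of 10.6, and a window of 100 bp gave 26.5. The lost share of promoters was 74.0 where a kept promoter needed overlapping peaks. Chosen after seeing the data, it was 68.0 where a KOLPS peak outside the window counted, and the KOLPS-only share was 12.4 without Igh. Unless stated, the cause was not tested. No paired analysis was possible because each condition had 1 list and the labels carry no replicate numbers, and for the same reason no replicate could be left out.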
